A study of Capra hircus with 3 samples.

Results

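Tags of 32 to 36 nt, the length of tRNA-halves, were taken from 3 small RNA libraries of goat skin by their length alone. A tag is one distinct sequence with the number of reads that carried it. The class held 200726 of the 4043974 distinct tags and 1187557 of the 61125752 clean reads. The skin was flank skin of adult Shanbei White cashmere goats of both sexes, taken in anagen, catagen or telogen, the growing, regressing and resting stages of the hair cycle. For each stage the skin of 10 goats was mixed before RNA was isolated and made into 1 library. Whether the same goats gave each stage was not given in the sources used here. No goat received a treatment that the labels name, and with pooled skin and 1 library per stage there was no measure of the spread between goats. Tags that share their first 18 bases were joined into a 5′ family, which gave 143385 families, and the 100 families with most reads were compared between stages and numbered by their reads over the 3 libraries.

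Transfer RNAs carry amino acids to the ribosome, and stress ribonucleases such as angiogenin can cut them in the anticodon loop. The 5′-half that results begins at the first base of the mature tRNA and ends in the loop, whereas the 3′-half ends in CCA, the letters to which the amino acid is joined. The D arm, which lies in the 5′-half, holds letters that are nearly fixed among tRNAs, and these allow a 5′-half to be sought by sequence alone. Fragments of ribosomal and other long RNAs can have the same lengths, so length does not show from which RNA a tag came.

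Levels are given as RPM, the reads per 1000000 clean reads of the library. The anagen, catagen and telogen libraries held 15997828, 18111912 and 27016012 clean reads, so that 3 reads corresponded to 0.188, 0.166 and 0.111 RPM. The study isolated RNA of 18 to 30 nt from a gel, and tags of 32 to 36 nt therefore lie past the nominal upper end of that selection. How far the gel slices of the 3 libraries reached and how much RNA of this length the skin held cannot be told apart in these values. All intervals given cover counting error alone and treat each read as independent. PCR reads without molecular identifiers are not independent molecules, so the intervals can be too narrow even for counting error.

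The sequences of the most abundant tags show which families had the arrangement of a 5′ tRNA-half. A tag was called tRNA-like when it held TNGNNNA from base 8 and GG starting at base 17, 18 or 19, letters that are nearly fixed at these places of a tRNA. Each is printed 5′ to 3′ as deposited, with T for U, and capitals mark the letters of the rule in ranks 3, 9 and 64.
Rank 3: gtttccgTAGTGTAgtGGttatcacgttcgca
Rank 9: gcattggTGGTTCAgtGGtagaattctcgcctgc
Rank 64: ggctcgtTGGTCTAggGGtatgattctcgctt

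Most of the 100 families were of another kind, namely runs of families that lie along 1 sequence and start at neighbouring bases. The following are shown because the stretch they share, in capitals, makes these ladders visible. Ranks 13, 4 and 2 end at the same base and start 1 base apart, and rank 11 starts and ends 1 base later than rank 2.
Rank 13: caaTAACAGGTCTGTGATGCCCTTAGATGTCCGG
Rank 4: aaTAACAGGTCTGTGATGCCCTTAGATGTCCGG
Rank 2: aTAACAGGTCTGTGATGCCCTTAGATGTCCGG
Rank 11: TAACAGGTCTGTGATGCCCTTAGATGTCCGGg
The tags of ranks 43, 10, 8 and 7 form a second ladder of the same kind, with a common 3′ end and starts 1 base apart.
Rank 43: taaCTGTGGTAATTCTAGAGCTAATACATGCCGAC
Rank 10: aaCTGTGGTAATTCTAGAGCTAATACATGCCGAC
Rank 8: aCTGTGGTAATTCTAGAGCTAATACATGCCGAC
Rank 7: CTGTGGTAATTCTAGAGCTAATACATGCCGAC
Ranks 39 and 96 overlap in the same manner, whereas of the GC-rich ranks 41 and 21 the first both starts and ends 2 bases before the other.
Rank 39: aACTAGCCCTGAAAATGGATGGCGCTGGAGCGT
Rank 96: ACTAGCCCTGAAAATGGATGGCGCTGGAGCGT
Rank 41: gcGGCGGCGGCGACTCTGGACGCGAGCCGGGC
Rank 21: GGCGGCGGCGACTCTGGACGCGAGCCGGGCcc

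Further families that the comparisons single out are shown with their first 18 bases, the letters that define the family, in capitals. Rank 90 is the only one of the 100 families whose most abundant tag holds GTTCGANTC, the letters of the B box, an inner promoter element in the T arm of tRNA genes. All letters were sought on the strand that was read.
Rank 6: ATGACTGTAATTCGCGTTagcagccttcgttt
Rank 12: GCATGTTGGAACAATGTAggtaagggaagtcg
Rank 18: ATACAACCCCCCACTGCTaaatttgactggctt
Rank 23: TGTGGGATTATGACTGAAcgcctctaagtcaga
Rank 81: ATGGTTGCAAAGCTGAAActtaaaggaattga
Rank 90: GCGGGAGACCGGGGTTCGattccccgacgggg
No reference sequence of goat tRNA or rRNA was used here, so the families go by rank and sequence and carry no gene name.

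The share of clean reads at 32 to 36 nt was highest in anagen and lowest in telogen. The class took 3.27% of clean reads in anagen, with a Wilson 95% interval of 3.26 to 3.28. Catagen had 2.32%, with 2.32 to 2.33, and telogen 0.903%, with 0.899 to 0.906. These were 32671, 23247 and 9025 RPM, which is 3.62-fold more in anagen and 2.58-fold more in catagen than in telogen, and 1.41-fold more in anagen than in catagen. Distinct tags followed the same order, with 94232, 86026 and 50100 in anagen, catagen and telogen, or 7.20%, 6.50% and 2.40% of the distinct tags of each library. Of these tags 82.2%, 82.5% and 82.6% had been read once, so that the reads were concentrated in few tags in each library alike.

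Within the class, the difference from telogen grew with each added base. At 28 nt the anagen library had fewer RPM than the telogen library, with a log2 ratio of -0.38, and at 30 nt slightly more, with 0.15. The log2 ratio of anagen over telogen was 1.43 at 32 nt, 2.24 at 33 nt, 2.86 at 34 nt, 3.54 at 35 nt and 3.85 at 36 nt. Catagen over telogen went over the same lengths from 0.91 through 1.67, 2.43 and 3.32 to 4.04. The reads of the telogen library thus thinned out with length faster than those of the other libraries. Anagen over catagen showed no such climb, with 0.52 at 32 nt, 0.57 at 33 nt, 0.43 at 34 nt, 0.22 at 35 nt and -0.19 at 36 nt.

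Just outside the class, the log2 ratio of anagen over telogen was 0.75 at 31 nt and 3.52 at 37 nt, under its value at 36 nt, and that of catagen over telogen was 0.53 and 4.42. At 31 nt the libraries held 25276, 21715 and 15011 RPM in anagen, catagen and telogen, and at 37 nt 157, 293 and 13.7. Taken from 28 to 31 nt, the libraries were close to each other, with 117946, 109778 and 121217 RPM. From 37 to 44 nt the catagen library was the highest, with 655 RPM against 289 in anagen and 53.8 in telogen. Tags of 32 nt made up 51.3%, 50.4% and 69.1% of the class in anagen, catagen and telogen, and tags of 36 nt 1.58%, 2.54% and 0.397%.

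No first base dominated the class. U began 31.9%, 28.5% and 27.9% of the reads in anagen, catagen and telogen, A 27.5%, 26.5% and 26.4%, and G 25.1%, 29.4% and 29.3%. C was the rarest first base, with 15.4%, 15.6% and 16.5%. Without the family with most reads, U stood at 26.8%, 24.8% and 26.4%. Among distinct tags the shares of U were 28.5%, 26.9% and 28.4%, and those of C 20.4%, 20.9% and 21.5%. At 36 nt, where reads were few, A stood at 27.1%, 19.6% and 15.8%, and U at 34.4%, 29.2% and 36.1%.

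A small part of the families carried most of the reads of the class. Of the 143385 families, 123407 had a single read over the 3 libraries, 5646 had reads in each library and 951 had at least 100 reads in all. The 100 families with most reads held 49.6%, 45.4% and 44.9% of the class in anagen, catagen and telogen, the 10 first of them 23.5%, 17.6% and 13.7%, and the 1000 with most reads 79.3%, 77.5% and 77.7%. The edge of the 100 was not a step, since rank 100 had 1899 reads and rank 101 had 1870. Modal lengths were short within the window, at 32 nt in 64 of the 100 families, 33 nt in 26, 34 nt in 9 and 35 nt in 1.

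The tRNA-like rule was met by a minority of the class in each library. It held for 17.4% of reads at 32 to 36 nt in anagen, with a Wilson 95% interval of 17.3 to 17.5. The catagen share was 13.5%, with 13.4 to 13.6, and the telogen share 7.24%, with 7.14 to 7.34. Among distinct tags it held for 4.02%, 3.04% and 2.40%. The tRNA-like reads stood at 5697, 3130 and 654 RPM in anagen, catagen and telogen. The letters placed at base 6, 9, 10 or 11 in place of base 8 were met by 0.207% to 1.05% of reads, and at base 7 by 3.31%, 1.37% and 1.52%.

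The tRNA-like share varied with length, within the class and around it. At 22 nt, the commonest length of miRNAs, the share was 0.389%, 0.323% and 0.578% in anagen, catagen and telogen. Over the lengths from 18 to 36 nt it was highest at 31 nt in anagen and catagen, with 24.9% and 28.6% beside 8.11% in telogen, and at 26 nt in telogen, with 9.64% beside 4.78% and 5.71%. It was 19.4%, 16.5% and 8.05% at 32 nt, 14.7%, 13.9% and 5.60% at 34 nt and 1.26%, 3.90% and 0.207% at 36 nt. At each length from 31 to 36 nt telogen had the lowest tRNA-like share of the 3 libraries.

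Signs of 3′-halves were scarce within the class. The class was taken by length alone, so 3′-halves of other lengths could not enter it. Longer ones would also lie further past the nominal upper end of the gel selection. The shares below therefore do not show how common 3′-halves were in the skin. How often reads end in CCA by chance was not tested. Reads that end in CCA made up 1.55%, 2.29% and 1.49% of the class in anagen, catagen and telogen, and 1.18%, 1.66% and 1.23% without the family of rank 14, whose abundant tag ends so. At 22 nt the same 3 letters ended 2.09%, 3.20% and 3.57% of reads, more than in the class. From 37 to 44 nt, where reads were few, they ended 3.35%, 5.18% and 4.75%, also more than in the class. The letters of the B box were found in 0.250%, 0.127% and 0.537% of the reads of the class, or 1307, 534 and 1310 reads in anagen, catagen and telogen. The most abundant tag of rank 90, which holds these letters, alone gave 352, 8 and 619 of them. To read an anticodon, tags of at least 43 nt with the start of one of the 100 families were searched, and the 106 such tags, with 108 reads in all, gave a loop in 4 tags, and no anticodon was assigned.

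Of the 100 families 11 were tRNA-like, and most of them had sharp 5′ ends. In 10 of the 11, which overlap no other family, between 97.5% and 99.8% of the reads that cover the family's core of 18 bases, counted over starts up to 3 bases to either side, began exactly at the family's own base, with a median of 99.5%. In the 89 families without the rule the median was 23.3%, but 74 of these lie in overlap groups, where neighbouring starts lower the share by construction. Over the 15 without the rule that overlap no other family, the share ran from 28.35% to 99.8%, with a median of 71.3%. The exception among the tRNA-like families was rank 47, with 19.8%, which lies in a ladder of 15 families of which it is the only one with the rule. Among the 15, ranks 68, 6, 32, 90 and 14 had 99.7%, 99.5%, 94.45%, 89.7% and 81.1%, so that sharp starts were not particular to families that met the rule. The 15 were not shown to come from other RNAs than tRNA. The family at 99.8% lies within an edit distance of 2 of a tRNA-like family over its first 18 bases, and rank 90 holds the B box letters.

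The ladders were many. Families whose abundant tags overlap by at least 18 bases formed 16 groups, which held 75 of the 100 families, and 25 families overlapped none. The group of ranks 2, 4, 11 and 13 had 2471, 1109 and 548 RPM in anagen, catagen and telogen, and its starts were spread. Of the reads that cover the core of rank 2, 48.5% began where rank 2 does, 27.03% 1 base before and 11.7% 1 base after. The group of 5 families with ranks 7, 8, 10, 19 and 43 had 1291, 783 and 332 RPM. Anagen was the highest library in 12 of the 16 groups and catagen in the other 4, and telogen was the lowest in 13 of them.

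Each pair of libraries was compared on the reads by Audic and Claverie's exact test (two-sided), over families with at least 1 RPM in either library. A family was called when its log2 ratio lay beyond 1 in either direction with p under 0.01. The test compares 2 libraries, not the stages. Between anagen and catagen, 36 of the 100 families were higher and 11 lower in anagen, which was near the background of 33% and 9.84% of the 1951 families tested. Between anagen and telogen, 73 were higher and 2 lower in anagen, where 80.1% and 2.3% of 1786 families were. Between catagen and telogen, 60 were higher and 1 lower in catagen, where 70.5% and 1.31% of 1451 families were. The median log2 ratio of the 100 was 0.62, 1.55 and 1.21 in the 3 pairs, beside 0.52, 2.11 and 1.58 over all families tested. The median of the 100 was the lower in both pairs with telogen, but the 2 sets were chosen in unlike ways. The 100 had the most reads over the 3 libraries, while a family tested needed 1 RPM in only 1 library of the pair. The difference of the medians is therefore not read as a trait of the 100.

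Rank 3, a tRNA-like family, had 1189, 622 and 160 RPM in anagen, catagen and telogen. Its log2 ratios were 0.94 for anagen over catagen, under the limit, 2.90 for anagen over telogen and 1.96 for catagen over telogen. Rank 9 had 319, 262 and 46.8 RPM, so that anagen and catagen were near each other, with a log2 ratio of 0.28 (0.23 to 0.34), and both lay above telogen, with 2.77 and 2.48. Whereas rank 3 was read most at 32 nt, rank 9 was read most at 34 nt, with 2789 of its 5098 reads in anagen, 3019 of 4739 in catagen and 524 of 1264 in telogen. Rank 64 had 97.6, 59.6 and 7.25 RPM, and was among the 3 families with the largest log2 rise over telogen in both anagen (3.75) and catagen (3.04), leaving out those under 100 reads in either library of a pair.

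The other tRNA-like families described here had the same order, with anagen highest and telogen lowest in each. Rank 25 had 162, 108 and 23.1 RPM. Rank 29, whose first 18 bases differ from those of rank 25 by an edit distance of 1, had 148, 101 and 20.5 RPM. Rank 71 stood at 101, 41.1 and 13.2 RPM. Rank 76 stood at 99.8, 43.1 and 8.66 RPM. Ranks 25 and 29 thus had values close to each other, as their starts are. Rank 60 had 104 RPM in anagen, and its 35.2 RPM in catagen and 25.7 RPM in telogen were within the limit on the ratio. Rank 47, with 80.6, 65.1 and 42.97 RPM, had the smallest ratio of anagen over telogen of the 11. Rank 33, chosen after its values were seen and shown without its sequence, had 3862, 631 and 1 reads in anagen, catagen and telogen, a log2 ratio of anagen over telogen of 12.67 with an exact interval from 10.19 to 17.98, and whether these reads came from goat RNA was not tested.

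The ladder of ranks 13, 4, 2 and 11 showed different ratios for tags that end at 1 base. Rank 2, of 32 nt, had 1113, 553 and 337 RPM in anagen, catagen and telogen, and a log2 ratio of anagen over telogen of 1.72. Rank 4, which starts 1 base earlier and is 33 nt long, had 771, 295 and 108, with 2.83. Rank 13, 1 base longer again, had 311, 124 and 30.02, with 3.37. Over ranks 2, 4 and 13 the ratio of the family thus rose with the length of its most abundant tag, as the ratio of the class did with length. Rank 11, of 32 nt, had 276, 138 and 73.5 RPM and a log2 ratio of 1.91.

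The second ladder repeated this, again with the lengths of the most abundant tags. These tags held 74.2%, 53.4%, 39.5% and 37.55% of the reads of ranks 7, 8, 10 and 43. Rank 7, of 32 nt, had 357, 214 and 130 RPM in anagen, catagen and telogen. Rank 8, of 33 nt, had 368, 182 and 76.3 RPM. Rank 10, of 34 nt, had 306, 194 and 38.7 RPM, and rank 43, of 35 nt, 130, 81.2 and 10.6 RPM. Their log2 ratios of anagen over telogen were 1.46, 2.27, 2.98 and 3.61, and those of catagen over telogen 0.72, 1.25, 2.33 and 2.93, in order of length. Rank 43 was among the 3 families with the largest rise of catagen over telogen by the same count. Anagen over catagen had no such order, with 0.74, 1.01, 0.65 and 0.68.

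Length also differed within families. The mean length of the reads of a family was lowest in telogen in 95 of the 100 families, in anagen in 3 and in catagen in 2, and its median over the families was 32.73 nt in anagen, 32.68 nt in catagen and 32.38 nt in telogen. The class as a whole had the same direction, with tags of 32 nt at 69.1% of its reads in telogen, 51.3% in anagen and 50.4% in catagen. The count is thus not particular to these families, and the share over all families was not counted. The part of size selection in these lengths was not tested.

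The 11 tRNA-like families were higher in anagen than in catagen in 5 cases, higher in anagen than in telogen in 10 and higher in catagen than in telogen in 9, and none was called lower. Over all families tested 33%, 80.1% and 70.5% were higher. Without rank 33 the counts were 4, 9 and 8 of 10. Rank 47 was the one not called between anagen and telogen, with a log2 ratio of 0.91, and ranks 47 and 60 were those not called between catagen and telogen, with 0.60 and 0.45. The median log2 ratios of the 11 were 0.94, 2.90 and 2.30, beside 0.59, 1.43 and 1.16 in the 89 families without the rule. Over all families tested they were 0.52, 2.11 and 1.58, closer to those of the 11 in both pairs with telogen. Of the 89 families 74 lie in overlap groups, so that the same ladder enters their median more than once.

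The calls depended on the library total used. Scaled to the reads of 32 to 36 nt in place of all clean reads, 18 of the 100 families were higher and 18 lower in anagen than in catagen, against 20.6% and 19.3% of families tested. Anagen and telogen then differed in 21 and 21, against 19.4% and 13.5%, and catagen and telogen in 11 and 16, against 17.4% and 11.9%. This scaling lowers each log2 ratio by that of the class, 0.49, 1.86 and 1.37 in the 3 pairs. Ranks 2, 6, 7 and 12 turned from 1.72, 1.32, 1.46 and 1.05 for anagen over telogen to -0.13, -0.54, -0.40 and -0.80, and ranks 8 and 12 from 1.25 and 1.03 for catagen over telogen to -0.11 and -0.34. Ranks 3, 10 and 64 stayed above 1 for anagen over telogen, with 1.04, 1.13 and 1.89. Of the tRNA-like families 2, 6 and 4 were still called higher in the 3 pairs and none lower. Without rank 33 these counts were 1, 5 and 3 of 10.

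Between anagen and catagen, the families with the largest rise in anagen among those with at least 100 reads in both libraries were ranks 96, 90 and 81. Rank 96 had 93.4, 10.4 and 10.9 RPM in anagen, catagen and telogen, a log2 ratio of 3.17 (exact 95% interval 2.95 to 3.40) over catagen, while the interval of catagen over telogen, -0.34 to 0.20, held 0 (exact test of Audic and Claverie, p = 0.647). Its partner rank 39 had 206, 28.7 and 9.92 and a log2 ratio of anagen over telogen of 4.38 (4.20 to 4.56). Rank 81 had 113, 15.02 and 12.1, with 2.91 for anagen over catagen. Ranks 96, 39 and 81 were thus each highest in anagen.

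Rank 90, with the B box letters, had another order. It had 50.1, 6.62 and 41.9 RPM in anagen, catagen and telogen, so that catagen was low and the other libraries were near each other. Its log2 ratio was 2.92 (2.64 to 3.21) for anagen over catagen. Anagen over telogen gave 0.26 (0.13 to 0.39), and catagen over telogen -2.66 (-2.94 to -2.39), the only call of the 100 in that direction. Its shorter reads of 18 to 31 nt had the same order, with 37.01, 3.81 and 29.6 RPM.

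Some families were lowest in anagen. Rank 41 had 25.9, 111 and 56.1 RPM in anagen, catagen and telogen, and rank 21, which overlaps it, 36, 149 and 83.5. Their log2 ratios of anagen over catagen were -2.09 and -2.05 and of anagen over telogen -1.12 and -1.21, and they were the only 2 families of the 100 called lower in anagen than in telogen. Rank 23 had 43.8, 176 and 49.7 RPM, with -2.01 for anagen over catagen and an uncalled -0.18 for anagen over telogen. Ranks 21 and 41 lie in 1 group of 6 overlapping families with 268, 622 and 325 RPM, and rank 23 in a pair with 83.8, 320 and 104. The group of 5 families from rank 34 was also highest in catagen, with 223, 568 and 150.

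Ranks 6 and 18, which overlap none of the other families, were highest in catagen too. Rank 6 had 239, 452 and 96.2 RPM in anagen, catagen and telogen, and its log2 ratio of anagen over catagen, -0.92 (-0.97 to -0.86), did not reach the limit. Rank 18 had 143, 195 and 19.5 RPM and the largest rise of catagen over telogen among families with at least 100 reads in both libraries, with 3.32 (3.19 to 3.46). The shorter reads of rank 18, of 18 to 31 nt, were lowest in catagen, with 28.1, 6.13 and 26.7 RPM. Their log2 ratio of catagen over telogen was -2.125, the reverse of that of the long reads. Rank 12, in a group of 11 overlapping families, had 172, 169 and 82.8 RPM, and a log2 ratio of anagen over catagen of 0.03 with an interval of -0.05 to 0.10 (exact test of Audic and Claverie, p = 0.507).

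The same families had other ratios in their shorter reads. Reads of 18 to 31 nt with the same first 18 bases, a measure that the choice of the families did not use, had a median log2 ratio of -0.03 between anagen and catagen, -0.41 between anagen and telogen and -0.42 between catagen and telogen. The ratio was higher at 32 to 36 nt than at 18 to 31 nt in 62, 99 and 94 of the 100 families. The libraries as a whole had the same direction. Their log2 ratios were -0.01, -0.04 and -0.02 at 18 to 31 nt and 0.49, 1.86 and 1.37 at 32 to 36 nt. The counts are thus not particular to these families, and the share over all families was not counted. For anagen over telogen 68 families lay below 0 in the short reads and above 0 in the long ones, and the same number did for catagen over telogen, beside 27 for anagen over catagen. A 5′ family could thus be lower in anagen by its short reads and higher by its long ones.

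Rank 9 is one such case. Its short reads numbered 27916, 40071 and 139538 in anagen, catagen and telogen, or 1745, 2212 and 5165 RPM, a log2 ratio of anagen over telogen of -1.57, where its long reads gave 2.77. Of all its reads 15.4%, 10.6% and 0.898% were of 32 to 36 nt in the 3 libraries. The tRNA-like families differed among themselves in this. The short reads were lower in anagen than in telogen in 5 of the 11, and their median log2 ratio was 0.65 there, or 0.15 without rank 33. Summed over the 11, the short reads were at 11989, 13519 and 12718 RPM and the long reads at 4823, 2498 and 531. Without rank 47 the short reads were at 10440, 11152 and 9446 RPM, so that the order of anagen and telogen changed with a single family left out. The family with most reads, which met the rule, gave the largest part of the short reads in anagen and catagen, but not in telogen. The order of these sums thus rests on few families and is not a trait of all 11.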

How the data were processed

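Small RNA of goat skin was sequenced in 1 library per stage (anagen, catagen, telogen). The authors removed low-quality reads, adapter contaminants, reads without insert and reads under 18 nt and collapsed the rest into tags, and the deposited count of a tag is its number of clean reads, without alignment or normalisation. Tool versions for this step are not given in the sources used here.

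Tags of 32 to 36 nt were grouped by their first 18 bases, and levels are RPM, reads per 1000000 clean reads. The members, sequence rules and tests were chosen with earlier results of these data known. Families under 1 RPM in both libraries of a pair were left out, a value of 0 was set to 0.01 RPM, and Audic and Claverie's exact test followed the formula in the study's methods with Python 3.11.15 and scipy 1.17.1. Calls needed a log2 ratio beyond 1 in either direction and an unadjusted p under 0.01. Ratio intervals are exact (Clopper-Pearson) and intervals of shares are Wilson, at 95%. With 1 library per stage no quasi-likelihood model was possible. The test was checked on simulated reads with counting error only. They held no PCR copies and no spread between goats, so the check covers the computation alone. Edit distances came from edlib 1.3.9.post1.

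Named families were the 12 with most reads and, per pair, those among the 100 with the 3 highest and the 3 lowest log2 ratios, if called and read at least 100 times in each library. The other tRNA-like families and ranks 14, 32 and 68 were named after their values were seen, and the results of some families are not reported here. Alternatives changed the scaling (reads of 32 to 36 nt, median-of-ratios size factors, TMM factors from edgeR 4.0.16 under R 4.3.3), the minimum level, the test, the family key, the length window, the handling of tags read once and the choice of the 100. The comparison at 32 nt alone and the tRNA-like values without rank 33 or rank 47 were added after seeing the data.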

Additional observations from a re-analysis of the deposited data

How the results depend on the processing

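With 1 library per stage, depth limits the counting error only, and no setting measures the spread between goats. No paired analysis was possible because each stage has 1 library and no number pairs the goats of the pools. No library could be left out, since each is the only one of its stage. The number of families called stayed within 1.5 times of the reported one in 27 of 48 comparisons over all families and in 36 of 51 over the 100. The cause of the changes below was not tested, except where fewer or more tags entered by construction.

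Over all families, 835, 1471 and 1042 were called between anagen and catagen, anagen and telogen, and catagen and telogen. Between anagen and catagen the number was 143 with at least 100 reads in both libraries, 190 in edgeR's exact test with an assumed coefficient of variation of 0.4, 542 at 33 to 35 nt and 1512 at 30 to 36 nt. Between anagen and telogen it was 588 per 1000000 reads of 32 to 36 nt, 659 with median-of-ratios size factors, 583 with TMM factors, 2489 without a minimum level, 207 with at least 100 reads in both, 596 in edgeR's exact test, 875 for the most abundant tag only, 976 at 33 to 35 nt and 420 at 32 nt per 1000000 reads of 32 nt. Between catagen and telogen the same settings gave 426, 447, 406, 1762, 190, 272, 592 for the most abundant tag only and 309 at 32 nt. The split of higher and lower calls between anagen and telogen moved from 1430 and 41 to 346 and 242 per 1000000 reads of 32 to 36 nt, 517 and 142 with median-of-ratios size factors, 325 and 258 with TMM factors and 200 and 220 at 32 nt.

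Of the 100 families, 47, 75 and 61 were called. Without a limit on the ratio 94 were called between anagen and catagen and 95 between catagen and telogen, and edgeR's exact test called 8, 31 and 16. Between anagen and telogen the number was 42 per 1000000 reads of 32 to 36 nt, 38 with median-of-ratios size factors, 43 with TMM factors, 37 for the 100 families at 30 to 36 nt and 38 at 32 nt alone. Between catagen and telogen it was 27, 28, 27, 32 and 27. The scaling also moved the split, from 73 higher and 2 lower in anagen than in telogen to 27 and 11 with median-of-ratios size factors and 19 and 24 with TMM factors.

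The share of clean reads kept its order of stages in each alternative, with anagen, catagen and telogen at 7.20%, 6.50% and 2.40% of distinct tags, 2.98%, 2.05% and 0.799% without tags read once, 1.54%, 1.09% and 0.276% at 33 to 35 nt, 8.62%, 7.20% and 4.94% at 30 to 36 nt and 3.04%, 2.21% and 0.884% without the family with most reads. The tRNA-like share kept its order too, at 18.6%, 14.9% and 8.81% by TNGNNNA only, 4.02%, 3.04% and 2.40% of distinct tags, 11.2%, 9.05% and 5.32% without the family with most reads and 17.2%, 13.2% and 6.80% without rank 47. The share of U did not keep its order, at 26.8%, 24.8% and 26.4% without the family with most reads and 28.5%, 26.9% and 28.4% of distinct tags.

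For the named families 26 of 440 alternatives turned the sign of a log2 ratio that was called before or after. For anagen over telogen, rank 2 stood at -0.13 per 1000000 reads of 32 to 36 nt and -0.18 with TMM factors, rank 6 at -0.54 and -0.59, rank 7 at -0.40 and -0.44, and rank 12 at -0.80 and -0.85. With median-of-ratios size factors ranks 6, 7 and 12 were at -0.15, -0.01 and -0.41, and at 32 nt alone ranks 6, 7, 8 and 12 at -0.58, -0.11, -0.01 and -0.55. For catagen over telogen, rank 8 was at -0.11 per 1000000 reads of 32 to 36 nt, -0.17 with TMM factors and -0.30 at 32 nt alone, rank 12 at -0.34, -0.40 and -0.30 and, with median-of-ratios size factors, -0.22, and rank 4 at -0.77 at 32 nt alone. With all lengths counted, rank 9 was at -1.34 for anagen over telogen and -1.07 for catagen over telogen and rank 12 at -0.10 for anagen over telogen. A further 70 alternatives kept the sign and lost the call, 10 gained it, 25 turned the sign of a ratio that was called neither before nor after, and 309 left sign and call as they were.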
